A study of Mus musculus with 96 samples.

Results

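The response of the mouse striatum to a Gq-coupled designer receptor in astrocytes was split into what changed in astrocyte ribosome-bound RNA and what changed in the tissue as a whole. All 16 libraries of the mice expressing hM3Dq were used, out of 96 in the series: a pull-down (IP) and an input library of each of 8 mice, 4 given CNO and 4 given vehicle. For each gene the log2 ratio of IP over input was formed within each mouse, and the ratios of the 4 CNO mice were compared with those of the 4 vehicle mice. The libraries were chosen by their labels, with earlier results of these data known. A further 40 libraries, IP and input of 20 control mice, served only to rank genes by how strongly the pull-down enriches them.

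The mice were adult C57BL/6 animals, and each replicate was a separate mouse. Per the labels, an AAV made their striatal astrocytes express an HA-tagged Rpl22, a protein of the large ribosomal subunit, for 3 weeks, and antibody against the tag then pulled ribosomes with their RNA out of the striatal lysate (the RiboTag method). Both arms expressed hM3Dq in striatal astrocytes. One arm was injected i.p. with CNO at 1 mg/kg, the agonist of the receptor, and the other with vehicle. The labels name the astrocyte promoter GfaABC1D for another receptor of the series and none for hM3Dq, and they give no interval between CNO and tissue collection for hM3Dq. CNO was otherwise given only to mice with another designer receptor, rM3Ds, whose libraries were not used for this comparison, and not to mice without one, so an effect of CNO itself cannot be told apart from one of the receptor.

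hM3Dq is a human muscarinic M3 receptor altered to respond to CNO instead of acetylcholine. It couples to Gq, which activates phospholipase C, releases stored calcium through inositol trisphosphate receptors and activates protein kinase C, and in most cells this leads within minutes to hours to MAP kinase signalling and to induction of early response genes. Astrocytes use endogenous Gq receptors to sense transmitters, and reactive astrocytes release cytokines and chemokines that act on microglia, vessels and neurons. The input library holds RNA of all these cells, astrocytes included, while the IP library holds mostly RNA on tagged ribosomes. A gene whose RNA in the lysate comes largely from the tagged cells moves in both libraries when those cells change, and its ratio then moves little. The ratio therefore separates the fractions and does not by itself name the cell in which a shared change took place.

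Libraries held 48620583 to 82255780 gene-assigned reads in IP and 27084160 to 42299932 in input. Levels are FPKM (reads divided by gene length and by library size), and all log2 changes are CNO minus vehicle, on log2 of scaled FPKM + 0.1, which understates the change of genes with very low levels. The pull-down enriched astrocyte RNA, but not astrocyte RNA alone. The summed level of 20 astrocyte markers was 12828 to 13466 FPKM in vehicle IP and 1897 to 1948 in vehicle input, while 18 microglia markers summed to 29.99 to 35.3 and 852 to 1231. Medium spiny neuron markers (20 genes) were not absent from IP, where they summed to 1663 to 1905 FPKM with vehicle, against 6699 to 7154 in input. Striatal interneuron markers (12 genes) were enriched, with sums of 1692 to 1731 FPKM in vehicle IP and 421 to 488 in vehicle input. Their median log2 IP over input in the control mice was 1.93, against 2.54 for astrocyte and 1.67 for ependymal markers. Oligodendrocyte markers (12 genes) were present in both fractions, with sums of 993 to 1797 FPKM in vehicle IP and 1538 to 1714 in vehicle input. The median log2 IP over input in the control mice was 0.15 for them, 0.20 for oligodendrocyte precursor markers and 0.15 for pan-neuronal markers. A change in IP is therefore not by itself a change in astrocytes. Vehicle replicate 1 stood apart in Y-linked genes: its Ddx3y level was 8.66 FPKM in IP, against 26.2 to 27.0 in the other vehicle mice. Without this mouse 2841 genes were called in the ratio, 1603 higher and 1238 lower, against 3232 with it. In a bulk library, fewer cells of a type and less RNA per cell cannot be told apart.

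Chrm3, the mouse gene whose human counterpart gave rise to hM3Dq, was examined first. Its FPKM in the 4 vehicle mice was 74.1, 101, 82.2 and 110.4 in IP and 13.2, 12.8, 14.2 and 16.1 in input. In the 4 CNO mice it was 136, 63.3, 92.5 and 85.0 in IP and 19.0, 10.7, 16.1 and 15.7 in input. The arms overlapped in both fractions, and the log2 IP over input lay between 2.67 and 3.25 in all 8 mice (change -0.09 ± 0.13 SE, adjusted p = 0.71). Reads of the human receptor, where they align to the mouse gene, are counted with it and cannot be separated in a value per gene.

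CNO changed IP far more widely than input, and about as many IP calls came with a call of the ratio as without one. In IP 3098 of 15142 genes tested were called higher (20.5%) and 3158 lower (20.9%) at a Benjamini-Hochberg adjusted p under 0.05 from limma, while in input 403 were called higher (2.66%) and 153 lower (1.01%). In log2 IP over input 1810 genes were called higher (12.0%) and 1422 lower (9.39%), and 520 of these 3232 genes changed at least 2-fold, 163 of them downwards. Of the 3232 genes called in the ratio 3083 (95.4%) were called in IP in the same direction, and of the 6256 genes called in IP these were 49.3%. The median change over all genes was -0.03 in IP, -0.00 in input and -0.03 in the ratio. These shares and medians are the background for the counts of each gene list below. Leaving out vehicle replicate 2 took the lower calls in the ratio to 912. Leaving out vehicle replicate 4 took the input calls to 264 higher and 97 lower, and without vehicle replicate 3 there were 101 lower.

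Genes were sorted by these calls. IP-led rises (ratio and IP both called higher) numbered 1757, and IP-led falls 1326. Input-led rises (ratio called lower and input called higher) numbered 9. Input-led falls numbered 0, with 0 to 5 when 1 mouse was left out, and 0 genes were called in opposite directions in IP and input, with 2 by voom on recovered reads. Shared rises, called in IP and in input but not in the ratio, numbered 87, and shared falls 70. Single mice moved some of these counts. Without vehicle replicate 2 there were 837 IP-led falls, without vehicle replicate 3 there were 5 input-led rises, and without CNO replicate 1 there were 14 input-led rises and 28 shared falls. Of the 403 genes called higher in input, 369 were also called higher in IP, and 280 of those were also called higher in the ratio, so that most of what rose in the tissue rose more in the pull-down.

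**Figure D1:**
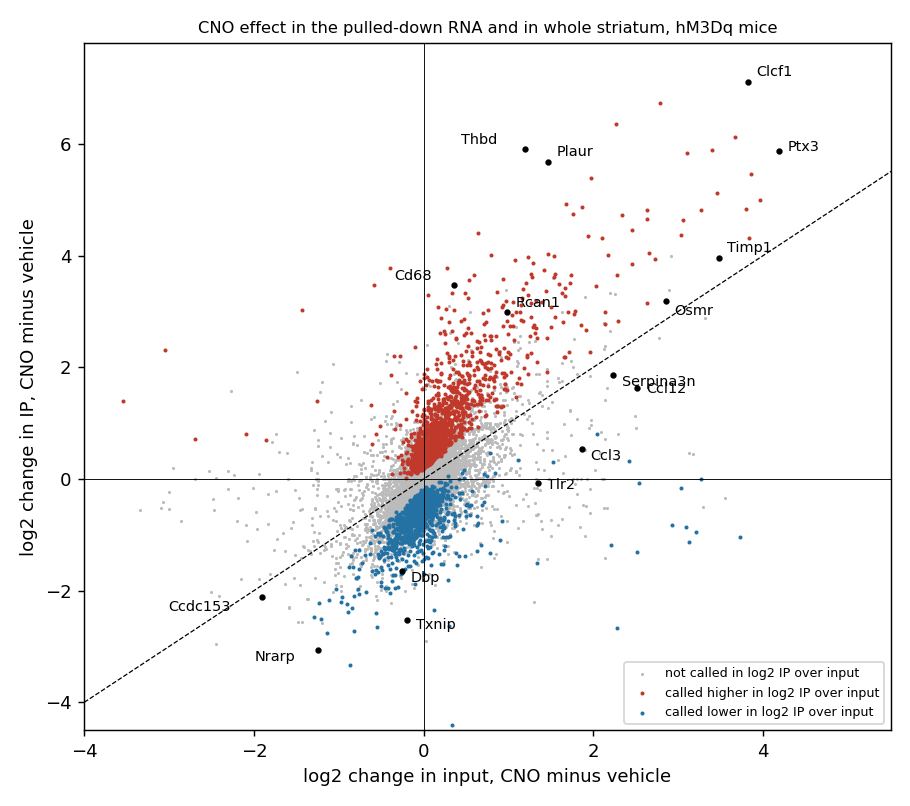
Each point is 1 of 15142 genes, with its log2 change in input (x axis) and in IP (y axis), CNO minus vehicle, 4 mice per arm. The dashed line marks equal change; the 1810 genes called higher in log2 IP over input (red) lie above it and the 1422 called lower (blue) below it, and Thbd and Plaur are far above it while Ccl12 and Tlr2 are below it.

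How much of a change in IP was seen in input went with how strongly the pull-down enriches the gene. Enrichment was taken from 20 control mice of the other 5 experiments, 4 from each: C57BL/6 mice with vehicle microinjected into the striatum or injected i.p., vehicle-injected C57BL/6 mice with rM3Ds, Kir4.1flox/flox mice with AAV5-GfaABC1D-TdTomato, and Itpr2+/+ littermates. It is the median log2 IP over input, with 1817 of the genes tested at 1 or more (enriched), 1773 at -1 or less (depleted) and 11552 between. Among genes called higher in IP by at least 2-fold, the 162 enriched ones had a median log2 change of 1.70 in IP and 0.98 in input, and 102 of them (63.0%) were called higher in input. The 459 genes in between had medians of 1.56 and 0.46, with 167 (36.4%) called in input. The 72 depleted genes had medians of 1.87 and 0.36, with 6 (8.33%) called in input. Falls were ordered in the same way: medians in IP and input were -1.29 and -0.54 for 262 enriched genes, -1.22 and -0.28 for 149 in between, and -1.55 and 0.09 for 11 depleted genes.

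**Figure D2:**
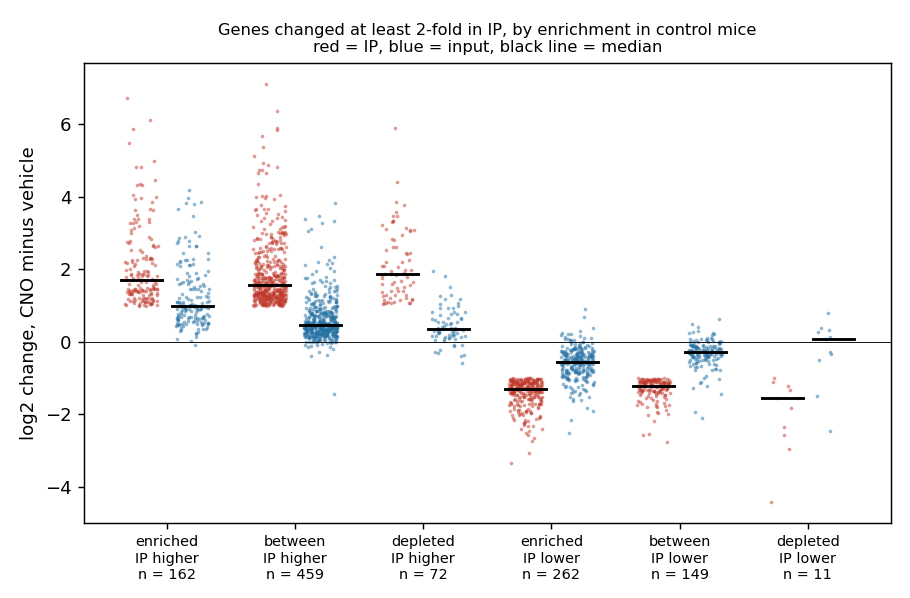
Log2 change (CNO minus vehicle) in IP (red) and in input (blue) of genes called in IP with at least a 2-fold change, split by direction and by enrichment in 20 control mice; each point is a gene and black lines are medians. For genes higher in IP the medians in IP are 1.70, 1.56 and 1.87 for enriched, intermediate and depleted genes, and in input 0.98, 0.46 and 0.36.

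The IP-led rises were headed by genes of the plasminogen and thrombin systems on the cell surface. Thbd, thrombomodulin, which binds thrombin, had 0.0603, 0.216, 0.132 and 0.231 FPKM in IP of the 4 vehicle mice and 10.0, 16.3, 17.01 and 14.5 in IP of the 4 CNO mice. In input it had 1.14, 1.33, 1.09 and 1.56 FPKM with vehicle and 2.37, 3.03, 3.90 and 3.10 with CNO. The arms did not overlap in either fraction, and Thbd went from below its input level in every vehicle mouse to above it in every CNO mouse (ratio change 4.71 ± 0.21 SE, adjusted p = 4.7e-07).

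Plaur, the receptor of urokinase, followed the same course, from 0.0584, 0.0111, 0.168 and 0.38 to 8.24, 12.2, 10.5 and 11.4 FPKM in IP and from 1.24, 0.731, 0.77 and 1.25 to 2.38, 3.41, 2.55 and 3.32 in input (ratio change 4.21 ± 0.36 SE, adjusted p = 3.3e-05). Plat, tissue plasminogen activator, rose from 6.87 ± 0.82 to 31.0 ± 4.34 FPKM in IP, and in input it was 10.3 ± 0.905 and 12.8 ± 1.47 (mean ± SD, n = 4; ratio change 1.87 ± 0.11 SE, adjusted p = 3.0e-06; input change 0.30 ± 0.09 SE, adjusted p = 0.14). Receptor and activator of this protease system thus both rose relative to the tissue, with Plat not called in input.

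Other leading IP-led rises were a transcription factor, receptors, a ubiquitin ligase and a cytokine. Fosl1, a member of the AP-1 family, was at 0.12, 0, 0.0805 and 0.0322 FPKM in vehicle IP and at 11.7, 19.4, 16.9 and 12.6 in CNO IP (ratio change 3.94 ± 0.47 SE, adjusted p = 2.3e-04). Epha2, a receptor tyrosine kinase for ephrins, was at 0.0518, 0.0196, 0.0199 and 0.014 and 1.298, 3.76, 2.73 and 2.3003, and its input values of 1.16, 0.747, 0.628 and 0.709 and 0.826, 1.95, 1.37 and 1.27 overlapped (ratio change 3.76 ± 0.26 SE, adjusted p = 9.2e-06). Gprc5a, an orphan G protein-coupled receptor, was at 0 in 3 of 4 vehicle IP libraries and at 2.51, 3.60, 2.69 and 2.78 FPKM in CNO IP (IP change 4.93 ± 0.18 SE, adjusted p = 4.6e-07).

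Rnf125, an E3 ubiquitin ligase, rose from 0.528 ± 0.19 to 25.0 ± 5.75 FPKM in IP (ratio change 3.42 ± 0.15 SE, adjusted p = 4.7e-07). Clcf1, a cytokine of the IL-6 family, rose by 7.11 on the log2 scale in IP: 0.199, 0.283, 0.168 and 0.224 FPKM in the vehicle mice and 26.5, 55.6, 47.0 and 45.0 in the CNO mice. Its input level also rose, from 0.608 ± 0.414 to 8.78 ± 2.42 FPKM, and the ratio changed by 3.29 ± 0.49 SE (adjusted p = 9.8e-04). For Thbd, Plaur, Fosl1, Epha2, Gprc5a, Rnf125 and Clcf1 every CNO mouse had a higher ratio than every vehicle mouse, which was a condition for naming them.

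**Figure D3:**
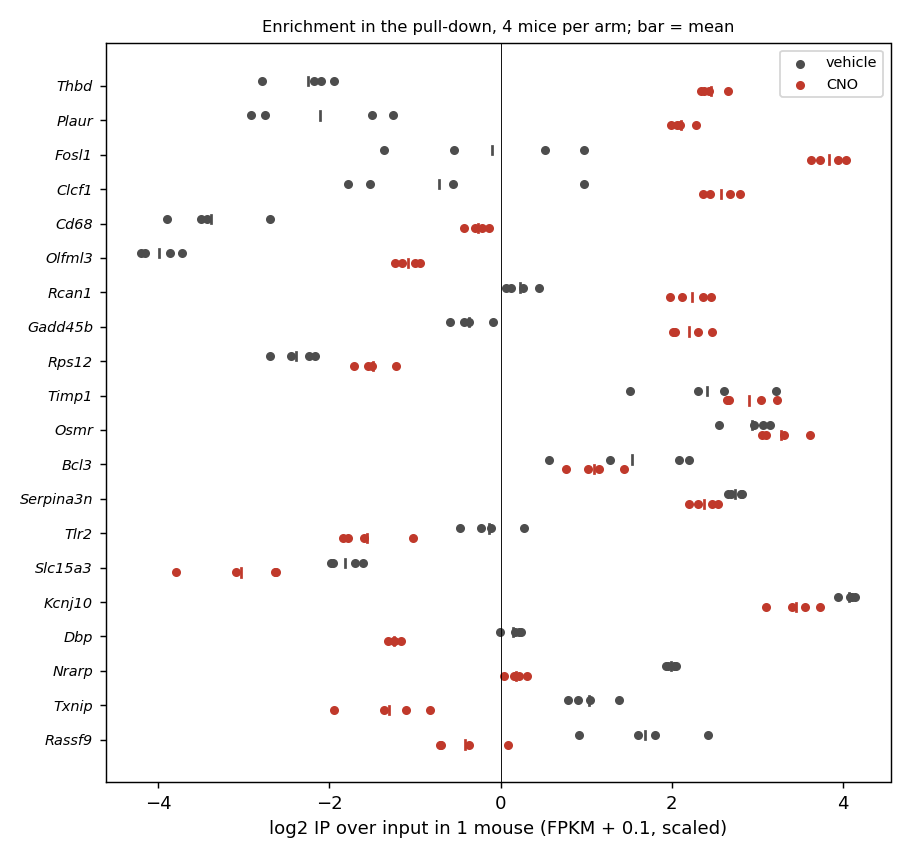
Log2 IP over input of 20 genes in each of 8 mice (vehicle grey, CNO red; vertical bars are means of 4). Thbd, Plaur, Cd68 and Olfml3 move from the left to the right, Kcnj10, Dbp, Nrarp and Txnip move left, and for Timp1, Osmr and Bcl3, whose ratio change was not called, the arms lie close together.

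Early response transcription factors rose as a group, more in IP than in input. Of 28 early response factors tested, 22 rose and 0 fell in IP, while 10 rose and 0 fell in input. A higher ratio was called for 22 and a lower one for 0, and the median log2 changes were 1.79 in IP, 0.56 in input and 1.01 in the ratio. For comparison, 12.0% of all genes were called higher in the ratio. Nr4a3, an orphan nuclear receptor, had 2.01, 2.41, 1.48 and 1.29 FPKM in vehicle IP and 36.9, 23.3, 18.9 and 16.5 in CNO IP, while its input values of 3.47, 4.27, 1.36 and 1.97 and 3.59, 3.59, 4.10 and 4.28 overlapped (ratio change 3.05 ± 0.30 SE, adjusted p = 7.7e-05). Fosl2, another AP-1 member, rose from 1.74 ± 0.532 to 11.3 ± 0.89 FPKM in IP, and the growth-related factor Myc from 1.26 ± 0.386 to 11.8 ± 1.55 (ratio changes 2.17 and 1.85). Atf3, a stress-induced member of the ATF family, rose in both fractions, by 4.65 in IP and 3.06 in input.

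Promoter windows are shown for 4 genes of the IP-led rises in which the letters of the AP-1 site (TGANTCA) or of the cyclic AMP response element CRE (TGACGTCA) were found. AP-1 is the family of the Fos and Jun factors, and members of the ATF and CREB families bind the CRE letters found in Epha2. Plaur and Il11 are named by rule, and Cd68, which is described further on, was chosen after its values were seen. Windows run from 250 bases before to 50 bases after the RefSeq start on GRCm38.p6, are 300 bases long, and are written 5′ to 3′ with the matched letters in capitals.
Plaur: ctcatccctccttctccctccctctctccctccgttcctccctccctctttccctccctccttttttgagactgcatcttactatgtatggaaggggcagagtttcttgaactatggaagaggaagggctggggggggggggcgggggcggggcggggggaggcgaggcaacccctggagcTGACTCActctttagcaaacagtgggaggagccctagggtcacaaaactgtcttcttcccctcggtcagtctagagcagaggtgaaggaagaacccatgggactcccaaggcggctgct
Il11: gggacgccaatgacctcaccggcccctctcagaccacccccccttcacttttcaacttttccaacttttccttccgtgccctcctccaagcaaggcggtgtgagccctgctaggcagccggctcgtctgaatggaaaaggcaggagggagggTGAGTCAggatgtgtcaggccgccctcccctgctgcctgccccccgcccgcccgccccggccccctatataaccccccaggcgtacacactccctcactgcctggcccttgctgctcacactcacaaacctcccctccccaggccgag
Cd68: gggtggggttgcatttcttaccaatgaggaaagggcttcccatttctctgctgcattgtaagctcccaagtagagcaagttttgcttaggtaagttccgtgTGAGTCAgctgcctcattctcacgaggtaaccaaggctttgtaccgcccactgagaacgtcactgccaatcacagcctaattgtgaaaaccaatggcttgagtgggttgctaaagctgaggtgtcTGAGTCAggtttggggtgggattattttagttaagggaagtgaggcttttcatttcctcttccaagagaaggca
Epha2: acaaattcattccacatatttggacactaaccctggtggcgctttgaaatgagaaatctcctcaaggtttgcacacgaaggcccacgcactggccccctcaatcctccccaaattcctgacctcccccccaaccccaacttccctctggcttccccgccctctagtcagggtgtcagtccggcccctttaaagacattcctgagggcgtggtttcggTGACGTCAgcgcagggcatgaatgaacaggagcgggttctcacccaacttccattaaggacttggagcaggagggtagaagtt

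The Plaur window lies at chr7:24462233-24462532, plus strand, that of Il11 at chr7:4778092-4778391, minus strand, that of Cd68 at chr11:69666121-69666420, minus strand, and that of Epha2 at chr4:141300971-141301270, plus strand. The first match starts 69 bases before the start of Plaur, 98 before that of Il11, 149 before that of Cd68, which has 2 matches, and 33 before that of Epha2. Of 32851 windows of this length 7.81% hold the AP-1 letters and 1.79% the CRE letters on either strand, and neither pattern contains the other. Windows were matched for 77.1% of the genes tested, under the 80% needed for a count over a class, so none is given for the IP-led rises as a whole. The 4 genes were picked because a match was found. Of 82 named IP-led rises 59 (72.0%) had a window, of which 8 held the AP-1 letters, 7 the CRE letters and 45 neither. These numbers only record the search. They are per gene, with any window of a gene counted, and cannot be set against the shares per window. A second window listed for Il11 holds no AP-1 letters and is not shown. A match is a description of the sequence and not a measured binding site.

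Genes of the Gq pathway itself had small median changes, though some members rose, Rcan1 prominently. In IP 8 of 24 Gq and calcium genes tested were called higher and 3 lower, and in input 2 and 0. For the ratio these numbers were 5 and 1, with median log2 changes of 0.05 in IP, 0.01 in input and 0.07 in the ratio. The shares of all genes called higher and lower were 20.5% and 20.9% in IP and 12.0% and 9.39% in the ratio. The 1 lower ratio call became 3 without vehicle replicate 1 and 2 without vehicle replicate 3 or CNO replicate 1. Rcan1, an inhibitor of the calcium-activated phosphatase calcineurin and a known target of the NFAT factors it controls, had 30.2, 26.4, 24.7 and 28.2 FPKM in IP of the vehicle mice and 222, 269, 212 and 170.2 in IP of the CNO mice. In input it rose from 28.2 ± 2.27 to 56.0 ± 6.37 FPKM, and the ratio changed by 2.01 ± 0.12 SE (adjusted p = 2.8e-06). Rgs2, which shortens Gq signalling, rose from 13.5 ± 1.98 to 21.97 ± 5.77 FPKM in IP, and its input values were 55.6 ± 6.82 and 54.6 ± 8.24 (ratio change 0.72 ± 0.11 SE, adjusted p = 9.7e-04). Homer1, a scaffold of Gq-coupled glutamate receptors, changed by 0.62 ± 0.07 SE (adjusted p = 1.9e-04) in the ratio.

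Feedback inhibitors of MAP kinase signalling rose in the pull-down. Among 14 phosphatase and Sprouty genes tested, the ratio was called higher for 9 and lower for 0 (median log2 change 0.54). IP was called higher for 10 and lower for 0 (median 0.81), and input for 2 and 0 (median 0.17). Dusp5, a nuclear phosphatase of ERK, rose from 1.65 ± 0.473 to 19.96 ± 3.45 FPKM in IP, and in input it was 5.13 ± 0.892 and 7.53 ± 1.45 (ratio change 3.03 ± 0.21 SE, adjusted p = 1.0e-05; input change 0.53 ± 0.16 SE, adjusted p = 0.12). Spry1 and Spry2, Sprouty proteins that restrain receptor tyrosine kinase signalling, rose by 1.23 and 0.95 in the ratio, and Dusp10, a phosphatase of the stress kinases JNK and p38, by 0.91.

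Genes best known as neuronal activity genes also rose in IP relative to input. The pull-down also enriched striatal interneuron markers, and the part of interneuron RNA in these rises was not tested. The 20 neuronal activity genes tested had median log2 changes of 0.74 in IP, 0.12 in input and 0.62 in the ratio. Calls higher and lower numbered 13 and 0 in IP, 4 and 0 in input, and 12 and 0 in the ratio. Gadd45b, a stress and activity-induced regulator, went from 10.8, 7.24, 5.73 and 6.98 to 123, 153, 121 and 101 FPKM in IP and from 11.7 ± 1.38 to 32.7 ± 5.08 in input (ratio change 2.57 ± 0.13 SE, adjusted p = 1.1e-06). Scg2, a secretogranin of dense-core vesicles, went from 217 ± 7.10 to 601 ± 58.2 FPKM in IP and from 163 ± 8.32 to 203 ± 17.5 in input (ratio change 1.17 ± 0.09 SE, adjusted p = 2.2e-05). Nptx2, a secreted pentraxin of synapses, changed by 0.90 ± 0.15 SE (adjusted p = 0.0017) in the ratio. Arc and Npas4, which neurons induce on firing, were not called in any of the comparisons: Arc was at 70.5 ± 21.1 FPKM in vehicle input and 70.8 ± 19.2 in CNO input, and Npas4 at 7.51 ± 3.11 and 6.38 ± 1.05. Of 14 pan-neuronal markers 0 were called in IP, input or the ratio by limma, with 0, 1 and 0 past an unadjusted p of 0.05 and 0 called in the ratio by voom. Of 20 medium spiny neuron markers, limma called 1 lower in IP and 0 in input or the ratio. By voom 1 was called lower in IP, 1 lower in input and 0 in the ratio. At an unadjusted p under 0.05 in limma, 3 were lower in IP, 8 in input and 0 in the ratio, and 0 were higher. Their summed level in input was 6699 to 7154 FPKM with vehicle and 6204 to 6568 with CNO, without overlap.

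**Figure D4:**
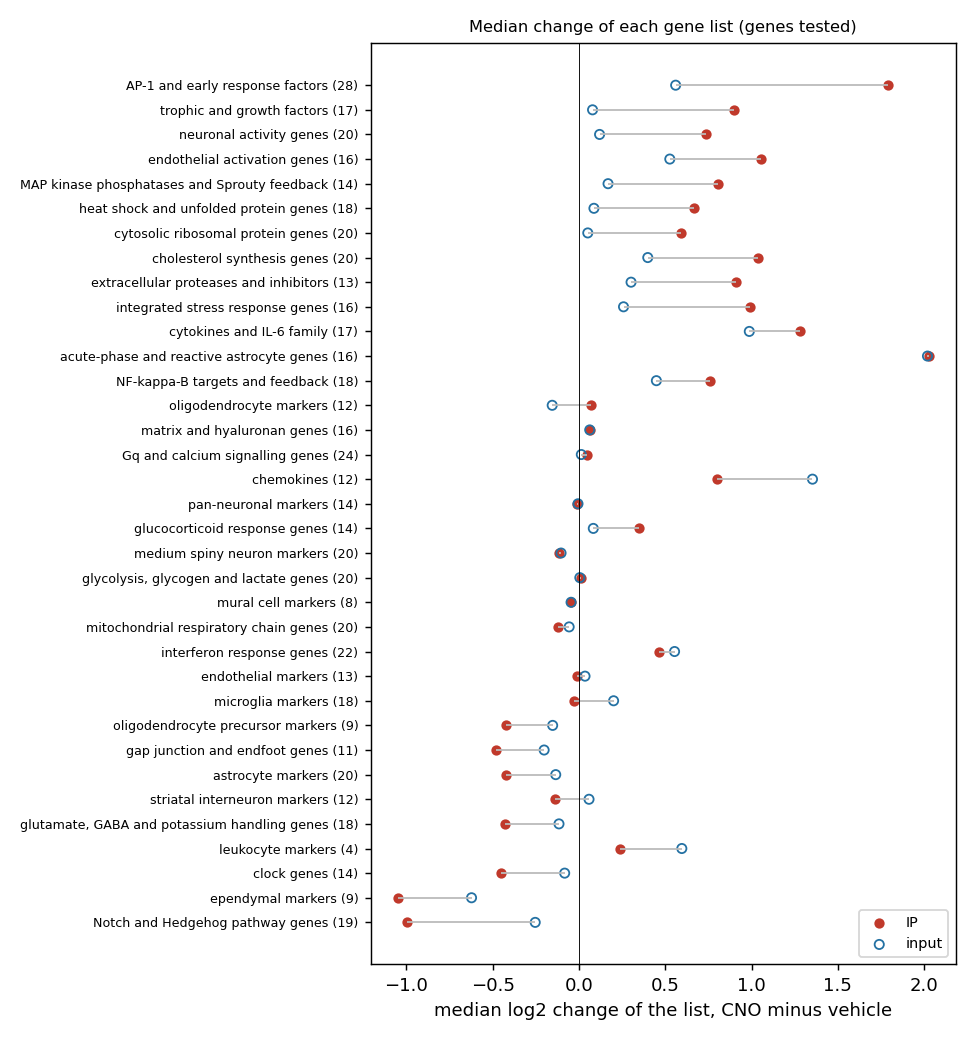
Median log2 change (CNO minus vehicle) of each gene list in IP (filled) and in input (open), with the number of genes tested in brackets, ordered by the median change of log2 IP over input. AP-1 and early response factors are at 1.79 in IP and 0.56 in input, acute-phase genes at 2.03 and 2.02, chemokines at 0.80 and 1.35, and Notch and Hedgehog genes at -0.996 and -0.25.

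Cytokines of the IL-6 family and their signalling genes rose in both fractions, some of them further in IP. From 17 cytokine and receptor genes tested, 6 were called higher and 1 lower in the ratio, where the median log2 change was 0.34. By fraction, 14 rose and 1 fell in IP and 8 rose and 0 fell in input, with medians of 1.28 and 0.99. That single lower ratio call was lost without any 1 of vehicle replicates 1 to 3 or CNO replicates 2 to 4. Il11, a cytokine that signals through gp130, went from 0.132, 0.231, 0.0195 and 0.173 FPKM in vehicle IP to 9.58, 12.1, 12.2 and 14.7 in CNO IP, and from 0.125 ± 0.0731 to 1.86 ± 0.244 in input (ratio change 2.72 ± 0.37 SE, adjusted p = 5.2e-04). Socs3, the feedback inhibitor of these cytokines, went from 3.81, 1.75, 1.597 and 2.04 to 81.0, 100.02, 66.3 and 68.2 FPKM in IP and from 2.25 ± 0.752 to 25.6 ± 6.40 in input (ratio change 1.66 ± 0.12 SE, adjusted p = 1.0e-05). Il6ra, the ligand-binding chain of the IL-6 receptor, rose from 0.332 ± 0.123 to 2.46 ± 0.628 FPKM in IP, and its input of 1.34 ± 0.223 and 1.56 ± 0.299 was not called (ratio change 2.42 ± 0.29 SE, adjusted p = 2.6e-04). Lif and the alarmin Il33 rose in both fractions, and their ratio changes of 0.51 ± 0.22 SE (adjusted p = 0.13) and 0.29 ± 0.13 SE (adjusted p = 0.15) were not called.

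NF-kappa-B genes rose in IP, and a smaller number changed in the ratio. Median log2 changes over the 18 NF-kappa-B genes tested were 0.76 in IP, 0.45 in input and 0.16 in the ratio. The test called 11 higher and 0 lower in IP, 4 and 0 in input, and 6 and 1 in the ratio. Lower ratio calls numbered 2 without CNO replicate 1. Nfkbiz, a nuclear regulator of NF-kappa-B, rose from 1.34 ± 0.678 to 11.7 ± 3.35 FPKM in IP and from 2.16 ± 0.339 to 4.25 ± 0.624 in input (ratio change 2.18 ± 0.23 SE, adjusted p = 1.1e-04). The subunit genes Nfkb1 and Nfkb2 rose by 0.95 and 0.92 in the ratio.

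Growth factors and genes of vessel activation were led by the pull-down as well. Of 17 trophic and growth factors tested, 11 rose and 0 fell in IP, while 3 rose and 0 fell in input. A higher ratio was called for 8 and a lower one for 0, and the median log2 changes were 0.90 in IP, 0.08 in input and 0.67 in the ratio. Hbegf, a ligand of the EGF receptor, had 20.8, 18.5, 20.02 and 22.5 FPKM in vehicle IP and 147, 189, 190.3 and 166 in CNO IP, and rose from 9.84 ± 0.763 to 28.5 ± 5.16 in input (ratio change 1.58 ± 0.11 SE, adjusted p = 1.1e-05). Tgfb1, a transforming growth factor that the control pull-downs depleted, rose from 0.333 ± 0.143 to 1.54 ± 0.422 FPKM in IP, and its input was 2.01 ± 0.267 and 2.33 ± 0.77 (ratio change 1.81 ± 0.28 SE, adjusted p = 0.0012). Kitl, the ligand of Kit, rose by 1.40 in the ratio and Gdf15, a stress-induced cytokine, by 2.41. In IP 13 of 16 endothelial activation genes tested were called higher and 0 lower, and in input 5 and 0. For the ratio these numbers were 9 and 0, with median log2 changes of 1.05 in IP, 0.53 in input and 0.58 in the ratio.

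Among matrix genes, Cd44, the receptor of hyaluronan, rose from 6.73 ± 0.993 to 104 ± 12.8 FPKM in IP and from 1.20 ± 0.402 to 8.38 ± 1.06 in input (ratio change 1.22 ± 0.15 SE, adjusted p = 3.3e-04). Among 16 matrix and hyaluronan genes tested, the ratio was called higher for 3 and lower for 0 (median log2 change 0.13). IP was called higher for 7 and lower for 2 (median 0.07), and input for 2 and 1 (median 0.06). For extracellular proteases and their inhibitors the counts were 6 higher and 2 lower in the ratio of 13 tested, with 9 and 2 in IP and 5 and 1 in input.

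Genes of protein folding rose in the pull-down with little change in the tissue. The 18 heat shock and unfolded protein genes tested had median log2 changes of 0.67 in IP, 0.09 in input and 0.54 in the ratio. Calls higher and lower numbered 15 and 0 in IP, 3 and 0 in input, and 13 and 0 in the ratio. Hspa5, the chaperone BiP of the endoplasmic reticulum, rose from 113 ± 21.9 to 297 ± 7.88 FPKM in IP and from 81.7 ± 7.14 to 112 ± 11.3 in input (ratio change 0.97 ± 0.10 SE, adjusted p = 1.0e-04). Manf, a secreted stress protein of the same compartment, changed by 0.95 ± 0.08 SE (adjusted p = 2.9e-05) in the ratio, and Xbp1, a transcription factor of the unfolded protein response, by 0.71 ± 0.13 SE (adjusted p = 0.0036). From 16 integrated stress response genes tested, 9 were called higher and 1 lower in the ratio, where the median log2 change was 0.48. By fraction, 10 rose and 4 fell in IP and 6 rose and 1 fell in input, with medians of 0.99 and 0.26. Its 1 lower ratio call became 3 without CNO replicate 1, 2 without vehicle replicate 1, and 0 without vehicle replicate 2 or 4 or CNO replicate 2 or 3. Ppp1r15a, which restores translation by dephosphorylating eIF2alpha, rose from 10.6 ± 3.71 to 60.6 ± 7.06 FPKM in IP (ratio change 1.71 ± 0.17 SE, adjusted p = 7.9e-05).

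Cholesterol synthesis was the metabolic list with the most calls in the ratio. Median log2 changes over the 20 cholesterol synthesis genes tested were 1.04 in IP, 0.40 in input and 0.52 in the ratio. The test called 17 higher and 0 lower in IP, 12 and 0 in input, and 15 and 0 in the ratio. Pmvk, phosphomevalonate kinase, had 36.8, 41.1, 33.8 and 39.1 FPKM in IP of the vehicle mice and 278, 214, 294 and 229.8 in IP of the CNO mice, and 18.5, 20.1, 22.6 and 21.4 and 47.8, 46.2, 59.2 and 52.5 in input. The arms were far apart in both fractions (ratio change 1.45 ± 0.12 SE, adjusted p = 2.9e-05). Hsd17b7, a reductase of the later steps, rose from 6.44 ± 1.07 to 18.2 ± 1.65 FPKM in IP (ratio change 1.06 ± 0.18 SE, adjusted p = 0.0025).

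Glycolysis genes did not move together. Of 20 glycolysis, glycogen and lactate genes tested, 7 rose and 4 fell in IP, while 2 rose and 2 fell in input. A higher ratio was called for 5 and a lower one for 3, and the median log2 changes were 0.01 in IP, 0.01 in input and -0.02 in the ratio. Over all genes 12.0% were called higher and 9.39% lower in the ratio. Hk2, the inducible hexokinase, rose from 0.698 ± 0.216 to 9.28 ± 2.92 FPKM in IP, and its input of 1.73 ± 0.469 and 3.46 ± 1.04 was not called (ratio change 2.64 ± 0.23 SE, adjusted p = 3.3e-05). Slc2a1, the glucose transporter GLUT1, rose from 33.0 ± 1.12 to 86.8 ± 10.2 FPKM in IP (ratio change 0.94 ± 0.11 SE, adjusted p = 2.4e-04), and Slc16a1, a transporter of lactate, changed by 1.01 ± 0.15 SE (adjusted p = 8.2e-04) in the ratio. The 3 glycolysis genes called lower in the ratio became 0 without vehicle replicate 2 and 1 without vehicle replicate 1 or 4 or CNO replicate 3 or 4. Slc2a1 is also 1 of 13 endothelial markers, whose sum in IP was 36.7 to 38.6 FPKM with vehicle and 76.3 to 102 with CNO; of the other 12 markers 1 was called lower in IP and 0 higher.

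Transcripts of cytosolic ribosomal proteins rose in the pull-down, and none of them was called in the tissue by limma. In IP 19 of 20 ribosomal protein genes tested were called higher and 0 lower, and in input 0 and 0. For the ratio these numbers were 18 and 0, with median log2 changes of 0.59 in IP, 0.05 in input and 0.52 in the ratio. By voom 0 were called in input as well, and 4 of the 20 were higher there at an unadjusted p under 0.05. Of all 81 tested entries with a ribosomal protein name, a set made after values were seen, 57 were called higher in the ratio, 68 in IP and 0 in input, and 0 were called lower in any of them. Rpl10 had 41.8, 50, 40.01 and 53.0 FPKM in vehicle IP and 79.4, 96.0, 85.3 and 95.9 in CNO IP, and 155, 155, 154 and 140.1 and 167, 179, 166 and 161 in input. The arms did not overlap in either fraction, and the difference was larger in IP. Rplp0, of the ribosomal stalk, changed by 0.76 ± 0.09 SE (adjusted p = 2.3e-04) in the ratio, and Rps12, chosen after its values were seen, by 0.89 ± 0.13 SE (adjusted p = 8.1e-04). These transcripts lay below their input level in the pull-down of control mice, with a median log2 IP over input of -0.95, so CNO brought them nearer to the level in the tissue.

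**Figure D5:**
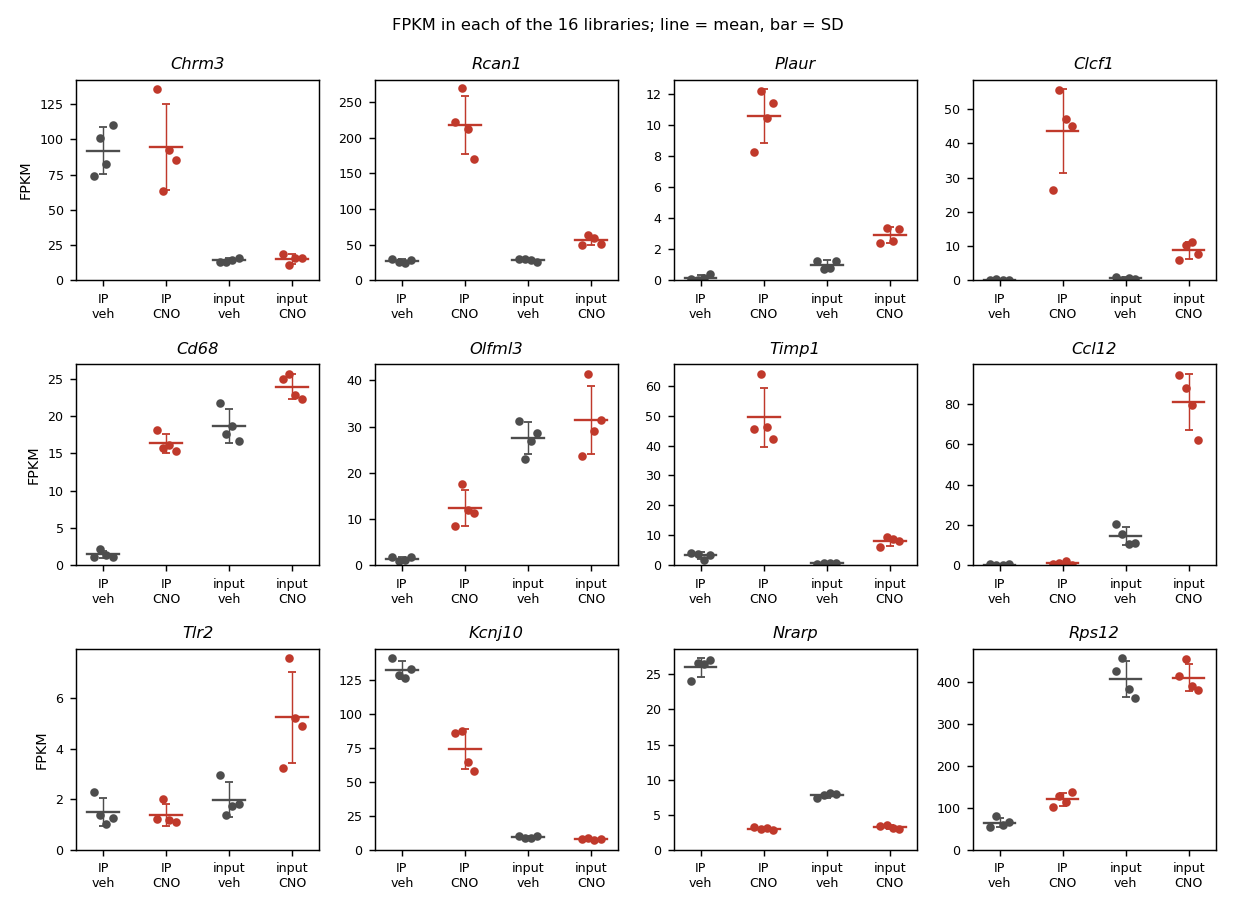
FPKM of 12 genes in each of the 16 libraries (IP and input, vehicle grey and CNO red; horizontal line = mean and error bar = SD of 4 mice, linear axes from 0). Chrm3 shows no separation of the arms; Cd68 and Olfml3 rise in IP from near 0 towards their input level; Ccl12 and Tlr2 rise in input while IP stays low; the arms of Rps12 are apart in IP.

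A group of IP-led rises had been depleted from the pull-down of control mice: 124 of the 1757, of which 54 rose at least 2-fold in IP and 5 were called higher in input. Several are genes best known from microglia and macrophages, and those named here were chosen after their values were seen. Cd68, a lysosomal protein of phagocytes, had 1.14, 2.15, 1.37 and 1.13 FPKM in vehicle IP and 18.2, 15.7, 16.2 and 15.3 in CNO IP. In input it had 21.8, 17.6, 18.7 and 16.7 with vehicle and 25.0, 25.7, 22.9 and 22.3 with CNO, and was not called (ratio change 3.11 ± 0.21 SE, adjusted p = 6.6e-06; input adjusted p = 0.058). The arms did not overlap in either fraction, and the CNO level in IP approached that in input.

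Olfml3, a secreted protein of the olfactomedin family, was at 1.71, 0.943, 1.17 and 1.71 FPKM in vehicle IP and 8.46, 17.7, 11.8 and 11.2 in CNO IP, while its input of 27.4 ± 3.45 and 31.4 ± 7.44 was not called (ratio change 2.90 ± 0.12 SE, adjusted p = 3.5e-07). Irf5, an interferon regulatory factor, changed by 2.85 ± 0.15 SE (adjusted p = 1.8e-06) in the ratio, and Cmklr1, the receptor of chemerin, by 2.78 ± 0.35 SE (adjusted p = 3.1e-04). P2ry6, a purinergic receptor that couples to Gq, and Tgfbi, a matrix protein induced by TGF-beta, changed by 1.90 ± 0.38 SE (adjusted p = 0.0052) and 2.57 ± 0.18 SE (adjusted p = 1.1e-05).

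The listed microglia markers were low in the pull-down, with a median log2 IP over input of -4.79 in the control mice. Of 18 microglia markers 0 were called higher by limma in IP, input or the ratio, with 0, 2 and 0 past an unadjusted p of 0.05 and 0 called higher in the ratio by voom, and 2 fell in IP. Their summed level in IP was 29.99 to 35.3 FPKM with vehicle and 24.0 to 32.8 with CNO. C1qa, a complement subunit, was at 3.75, 2.90, 3.44 and 2.18 FPKM in vehicle IP and 3.60, 5.19, 3.87 and 2.53 in CNO IP, against 215 ± 42.0 and 269.8 ± 87.2 in input. In input the markers summed to 852 to 1231 FPKM with vehicle and 892 to 1626 with CNO, with CNO replicate 2 highest. P2ry12 and Gpr34, receptors of resting microglia, fell in input, with changes of -0.52 ± 0.08 SE (adjusted p = 0.0078) and -0.62 ± 0.12 SE (adjusted p = 0.02). The part of microglial RNA in the rise of Cd68 and the genes beside it in IP was not tested. Leukocyte markers in input summed to 61.2 FPKM in CNO replicate 2, the mouse that was also highest for Tlr2, and to 12.9 to 27.9 in the other 7 mice; their part in the input rises was not tested. Of 4 leukocyte markers tested, 0 were called by limma in IP, input or the ratio, with 0, 1 and 0 past an unadjusted p of 0.05 and 0 called in the ratio by voom.

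Some acute-phase and reactive astrocyte genes were shared rises, 5 of the 16 tested, while 6 were IP-led rises and 1 an input-led rise. Among 16 acute-phase and reactive astrocyte genes tested, the ratio was called higher for 6 and lower for 2 (median log2 change 0.18). IP was called higher for 12 and lower for 0 (median 2.03), and input for 12 and 0 (median 2.02). Timp1, an inhibitor of matrix metalloproteinases, had 4.19, 3.69, 1.74 and 3.29 FPKM in vehicle IP and 45.5, 64.0, 46.1 and 42.2 in CNO IP, and 0.441, 0.643, 0.653 and 0.723 and 5.97, 9.32, 8.75 and 7.92 in input. The arms lay far apart in both, and the ratio change of 0.49 ± 0.30 SE (adjusted p = 0.29) was not called. Osmr, the receptor of oncostatin M, went from 13.5, 9.73, 8.73 and 10.1 to 96.6, 113, 89.7 and 80.8 FPKM in IP and rose by 3.19 in IP and 2.85 in input (ratio change 0.34 ± 0.15 SE, adjusted p = 0.15). Cebpd, a transcription factor of the acute phase, rose by 3.39 and 2.88, and Bcl3, an atypical IkappaB protein, by 2.88 and 3.32. Their ratio changes were 0.50 ± 0.21 SE (adjusted p = 0.12) and -0.44 ± 0.33 SE (adjusted p = 0.39), so an unequal change of the fractions is not shown for them and not shown to be absent.

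The chemokine Cxcl1, the serine protease Prss56 and uridine phosphorylase Upp1 were also shared rises, with changes in IP of 3.31, 2.66 and 2.53 and in input of 2.25, 2.20 and 2.78. With a pseudocount of 1 FPKM instead of 0.1 the ratios of Timp1, Cebpd, Osmr, Upp1, Cxcl1 and Prss56 were called higher (changes 0.48 to 1.25). Single mice decided some of these: the ratio was called higher for Cebpd without vehicle replicate 1 (0.72, adjusted p = 0.011), for Cxcl1 without vehicle replicate 4 (1.43, adjusted p = 0.039) and for Prss56 without vehicle replicate 3 (0.61, adjusted p = 0.019). Within the same list Ptx3, a pentraxin, and S1pr3, a receptor of sphingosine-1-phosphate, rose further in IP. With a pseudocount of 0.01 the call of Ptx3 was lost (change 1.27, adjusted p = 0.12). Ptx3 went from 0.967 ± 0.15 to 64.2 ± 25.4 FPKM in IP and from 0.305 ± 0.17 to 7.11 ± 2.42 in input, and S1pr3 changed by 2.22 ± 0.17 SE (adjusted p = 1.5e-05) in the ratio. Hspb1, a small heat shock protein, rose from 3.22 ± 1.21 to 66.4 ± 21.6 FPKM in IP (ratio change 2.40 ± 0.24 SE, adjusted p = 8.8e-05). Of the 87 shared rises 55 (63.2%) were enriched in control pull-downs, against 12.0% of all genes tested.

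The astrocyte filament gene Gfap had 1000.1, 594, 523 and 641 FPKM in vehicle IP and 999.7, 1572, 979.5 and 926 in CNO IP. It rose in IP by 0.72 ± 0.23 SE (adjusted p = 0.035) and in input by 0.93 ± 0.18 SE (adjusted p = 0.02), and the ratio change of -0.21 ± 0.11 SE (adjusted p = 0.21) was not called. Vim, vimentin, rose from 99.5 ± 20.9 to 450.1 ± 98.2 FPKM in IP and from 20.05 ± 2.53 to 64.4 ± 13.0 in input (ratio change 0.53 ± 0.08 SE, adjusted p = 0.0012; adjusted p = 0.126 without the mouse as a block). Interferon response genes were called higher in IP for 7 of 22 and in input for 2, and 0 were called higher in the ratio by limma or voom, with 1 past an unadjusted p of 0.05. Over all genes 20.5% were called higher in IP and 2.66% in input, and 12.0% higher and 9.39% lower in the ratio. The 2 interferon genes called lower in the ratio became 6 without vehicle replicate 3, 4 without CNO replicate 1, and 1 without any 1 of vehicle replicates 2 and 4 and CNO replicates 2 to 4.

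Input-led rises were few. Tlr2, a Toll-like receptor, had 2.29, 1.39, 1.03 and 1.25 FPKM in vehicle IP and 1.23, 2.003, 1.17 and 1.09 in CNO IP. In input it had 2.97, 1.38, 1.74 and 1.80 with vehicle and 3.25, 7.59, 5.21 and 4.90 with CNO. The input arms were apart, the IP arms overlapped, and the ratio fell by 1.43 ± 0.23 SE (adjusted p = 0.0016).

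Slc15a3, a lysosomal peptide and histidine transporter, rose in input from 1.6003 ± 0.309 to 4.89 ± 1.45 FPKM and stayed at 0.315 ± 0.0763 and 0.443 ± 0.282 in IP (ratio change -1.22 ± 0.30 SE, adjusted p = 0.015). Tgm2, transglutaminase 2, rose from 5.71 ± 0.466 to 13.1 ± 5.33 FPKM in input (ratio change -0.77 ± 0.15 SE, adjusted p = 0.0043), and Plek, pleckstrin, a protein kinase C substrate of blood and immune cells, from 9.69 ± 1.20 to 15.9 ± 1.92 (ratio change -0.63 ± 0.15 SE, adjusted p = 0.012). Serpina3n, a serine protease inhibitor of reactive astrocytes, rose in both fractions, from 46.3 ± 20.8 to 166 ± 64.5 FPKM in IP and from 8.31 ± 3.97 to 38.0 ± 11.3 in input, and a little further in input (ratio change -0.36 ± 0.08 SE, adjusted p = 0.011). That call was lost with a pseudocount of 1 (-0.24, adjusted p = 0.0504). In a fit without the mouse as a block, the ratio calls of Serpina3n, Slc15a3 and Tgm2 were lost (adjusted p = 0.646, 0.0537 and 0.103). Cd72 and Ltbr met the rule too, with ratio changes of -0.70 ± 0.20 SE (adjusted p = 0.033) and -0.31 ± 0.08 SE (adjusted p = 0.024). Cd72 lost its call without any 1 of vehicle replicates 2 to 4 or CNO replicates 2 to 4 (change -0.75 to -0.59, adjusted p 0.053 to 0.093), and Ltbr without vehicle replicate 1 or 2 or CNO replicate 3 or 4 (change -0.30 to -0.26, adjusted p 0.055 to 0.067). The other two of the 9 were C5ar1, the receptor of complement C5a, and Grrp1, both outside the rule for named genes. C5ar1 was listed at 0 in all 4 vehicle IP libraries and rose in input from 0.0891 ± 0.0767 to 0.907 ± 0.158 FPKM, and Grrp1 rose in input from 0.816 ± 0.198 to 3.76 ± 1.14.

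In all, 34 genes were called higher in input and not in IP, among them 7 of the 9 input-led rises; 23 of the 34 were depleted from control pull-downs and 2 enriched. Chemokines had a larger median change in input than in IP, as did interferon response genes (0.55 and 0.46) and the microglia and leukocyte markers (0.20 and -0.03, 0.60 and 0.24). The 12 chemokines tested had median log2 changes of 0.80 in IP, 1.35 in input and 0.01 in the ratio. Calls higher and lower numbered 4 and 0 in IP, 6 and 0 in input, and 1 and 1 in the ratio. Without vehicle replicate 4 there were 2 higher ratio calls, and without vehicle replicate 1 there were 2 lower ones. Ccl12, a chemokine that attracts monocytes, had 20.4, 15.3, 10.6 and 11.04 FPKM in vehicle input and 94.4, 87.9, 79.5 and 62.2 in CNO input, and 0.342, 0.202, 0 and 0.341 and 0.531, 0.883, 1.96 and 0.272 in IP. The input arms were far apart, and every IP library stayed far below every input library (input change 2.52 ± 0.20 SE, adjusted p = 1.1e-04; ratio change -0.88 ± 0.51 SE, adjusted p = 0.26).

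Ccl3 and Ccl4, chemokines that myeloid cells release, rose in input by 1.87 ± 0.28 SE (adjusted p = 0.0047) and 2.49 ± 0.41 SE (adjusted p = 0.008), and their highest IP values were 0.339 and 0.374 FPKM. Their ratio changes of -1.33 ± 0.60 SE (adjusted p = 0.15) and -1.37 ± 0.48 SE (adjusted p = 0.07) were not called; with a pseudocount of 1 the ratios of Ccl12, Ccl3 and Ccl4 were called lower, and that of Ccl4 also without vehicle replicate 1 (-1.78, adjusted p = 0.015). Ccl2 rose in both fractions, from 6.97 ± 5.17 to 32.9 ± 20.5 FPKM in IP and from 3.05 ± 1.87 to 13.0 ± 7.27 in input (ratio change 0.20 ± 0.20 SE, adjusted p = 0.53). Ccl7 rose further in IP, from 1.89, 0.309, 0.0736 and 0.687 FPKM with vehicle to 11.2, 39.0, 13.6 and 9.98 with CNO (ratio change 2.18 ± 0.50 SE, adjusted p = 0.011; adjusted p = 0.115 without the mouse as a block). Within 1 chemokine family, then, Ccl7 was called higher in the pull-down relative to the tissue. Ccl12, Ccl3 and Ccl4 were called in input and not in IP, where their levels were low. The 1 chemokine called lower in the ratio was Cxcl10, and that call was lost without the mouse as a block (change -0.74, adjusted p = 0.39).

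Falls were led by the pull-down and fell more heavily on genes it enriches: 394 of the 1326 IP-led falls (29.7%) were enriched in control mice, against 12.0% of all genes. Txnip, thioredoxin-interacting protein, which limits glucose uptake, had 16.8, 28.0, 15.1 and 14.03 FPKM in vehicle IP and 1.47, 3.47, 4.75 and 3.18 in CNO IP, and 10.6, 13.0, 10.4 and 8.22 and 7.38, 11.001, 10.4 and 8.21 in input. The IP arms were apart and the input arms overlapped (ratio change -2.34 ± 0.22 SE, adjusted p = 5.1e-05). Sfrp5, a secreted inhibitor of Wnt signalling, fell from 6.70, 6.87, 6.91 and 6.33 to 0.88, 1.52, 1.36 and 1.09 FPKM in IP (ratio change -1.84 ± 0.24 SE, adjusted p = 4.7e-04). Tmem52, Rassf9 and Fam198a fell in IP by 3.33, 2.65 and 2.72, with ratio changes of -2.47 ± 0.52 SE (adjusted p = 0.0072), -2.10 ± 0.36 SE (adjusted p = 0.0021) and -1.89 ± 0.17 SE (adjusted p = 4.9e-05).

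Hmgn5, a nucleosome-binding protein, fell from 2.54 ± 0.441 to 1.12 ± 0.105 FPKM in IP (ratio change -2.01 ± 0.38 SE, adjusted p = 0.004), and Rab3il1, an exchange factor of Rab proteins, from 3.62 ± 0.799 to 1.40 ± 0.265, while its input values of 4.51 ± 0.821 and 7.18 ± 1.97 were not called (ratio change -1.93 ± 0.33 SE, adjusted p = 0.0022). The remaining gene of the leading 8, Plac8, was at 0.439, 0.0887, 0.366 and 0.131 FPKM in vehicle IP and 0, 0.118, 0 and 0.0524 in CNO IP, and its ratio change with a pseudocount of 1 was -0.90 (adjusted p = 0.13), with -2.10 (adjusted p = 0.0644) without the mouse as a block.

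Notch and Hedgehog pathway genes fell together. From 19 Notch and Hedgehog genes tested, 0 were called higher and 13 lower in the ratio, where the median log2 change was -0.75. By fraction, 0 rose and 15 fell in IP and 0 rose and 3 fell in input, with medians of -0.996 and -0.25. Nrarp, a feedback target of Notch, had 24.1, 26.6, 26.4 and 27.0 FPKM in IP of the vehicle mice and 3.18, 2.96, 3.16 and 2.80 in IP of the CNO mice. In input it had 7.32, 7.77, 8.16 and 7.95 and 3.40, 3.50, 3.11 and 2.97. The replicates of each group were close and the arms far apart in both fractions (ratio change -1.81 ± 0.09 SE, adjusted p = 1.2e-06). Hes5, another Notch target, fell from 8.61 ± 2.73 to 1.16 ± 0.323 FPKM in IP (ratio change -1.63 ± 0.23 SE, adjusted p = 6.8e-04), and Gli2, a transcription factor of Hedgehog signalling, from 3.36 ± 0.156 to 0.8291 ± 0.235 (ratio change -1.62 ± 0.30 SE, adjusted p = 0.0035). Hes1, a Notch target too, was not called in IP, input or the ratio, with 5.59 ± 0.218 and 5.15 ± 0.728 FPKM in IP.

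Clock output genes fell mainly in the pull-down. Median log2 changes over the 14 clock genes tested were -0.45 in IP, -0.08 in input and -0.36 in the ratio. The test called 4 higher and 9 lower in IP, 1 and 1 in input, and 1 and 8 in the ratio. Higher ratio calls numbered 2 without CNO replicate 1, 3 or 4. Dbp, a transcription factor under direct control of the clock, had 105, 124, 129 and 125 FPKM in vehicle IP and 35.7, 33.9, 38.7 and 45.2 in CNO IP, and 127, 131, 137 and 129 and 106, 103, 113 and 121 in input (ratio change -1.39 ± 0.07 SE, adjusted p = 1.1e-06). The related factors Tef and Hlf changed by -0.66 ± 0.06 SE (adjusted p = 6.2e-05) and -0.92 ± 0.11 SE (adjusted p = 2.6e-04) in the ratio, and Per3, a period gene, by -1.14 ± 0.12 SE (adjusted p = 1.2e-04). Per1 was not called, with 13.3 ± 1.80 and 13.6 ± 1.31 FPKM in IP. The labels give no time of day for any mouse, so a difference in the hour of collection between the arms was not tested.

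Astrocyte markers mostly fell in IP, and fewer of them were called lower in the ratio. Of 20 astrocyte markers tested, 3 rose and 12 fell in IP, while 3 rose and 5 fell in input. A higher ratio was called for 0 and a lower one for 3, and the median log2 changes were -0.43 in IP, -0.13 in input and -0.24 in the ratio. The share of all genes called lower in the ratio was 9.39%. At an unadjusted p under 0.05 in limma, the ratio was lower for 10 of the markers and higher for 0. Ratio calls numbered 12 lower without CNO replicate 1, 8 by voom and 5 with no further scaling. Their summed level in IP was 12828 to 13466 FPKM with vehicle and 9078 to 11728 with CNO, without overlap. Kcnj10, the potassium channel Kir4.1, had 141, 129, 126 and 133 FPKM in vehicle IP and 86.3, 87.4, 65.1 and 58.1 in CNO IP, with 9.85, 9.04, 8.46 and 10.4 and 8.01, 8.96, 7.39 and 7.92 in input (ratio change -0.62 ± 0.12 SE, adjusted p = 0.0041). Fgfr3, a fibroblast growth factor receptor, and Slc4a4, a bicarbonate transporter, changed by -0.47 ± 0.09 SE (adjusted p = 0.0033) and -0.42 ± 0.08 SE (adjusted p = 0.0043) in the ratio. Gja1, the gap junction protein connexin 43, fell in both fractions, from 405 ± 17.4 to 229 ± 31.5 FPKM in IP and from 50.2 ± 1.95 to 35.7 ± 2.06 in input (ratio change -0.32 ± 0.12 SE, adjusted p = 0.085), and the ratio was called lower without CNO replicate 1 (-0.45, adjusted p = 0.0048). Ppp1r3c, a glycogen-targeting subunit of protein phosphatase 1, rose in both, by 1.74 and 1.59.

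The transport and channel genes by which astrocytes clear transmitter and potassium fell without exception among those called. In IP 0 of 18 transport and channel genes tested were called higher and 13 lower, and in input 0 and 3. For the ratio these numbers were 0 and 9, with median log2 changes of -0.43 in IP, -0.12 in input and -0.31 in the ratio. The number lower in the ratio was 14 without CNO replicate 1, 4 without vehicle replicate 4 or CNO replicate 4, and 5 without vehicle replicate 2 or 3 or CNO replicate 3; with scaling factors set within each fraction it was 6. Slc7a10, a transporter of neutral amino acids including D-serine, fell from 59.1 ± 6.40 to 26.3 ± 2.504 FPKM in IP and from 10.3 ± 1.65 to 6.57 ± 0.477 in input (ratio change -0.52 ± 0.09 SE, adjusted p = 0.0029). Slc6a9, a transporter of glycine, changed by -0.43 ± 0.10 SE (adjusted p = 0.014) in the ratio. Slc1a2, the main glutamate transporter, fell in IP by 0.45 ± 0.15 SE (adjusted p = 0.046), and its ratio change of -0.35 ± 0.13 SE (adjusted p = 0.076) was called only without CNO replicate 1 (-0.45, adjusted p = 0.018), by voom and without further scaling. With 1 mouse left out the gap junction count lower in the ratio reached 5, without CNO replicate 1. Of 11 gap junction and endfoot genes 7 fell and 1 rose in IP, and 3 fell and 0 rose in the ratio (1 rose with a pseudocount of 1), among the falls Hepacam, a glial adhesion protein (-0.44).

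Shared falls held genes of motile cilia, which beat on ependymal cells. Among 9 ependymal markers tested, the ratio was called higher for 0 and lower for 1 (median log2 change -0.43). IP was called higher for 0 and lower for 7 (median -1.05), and input for 0 and 3 (median -0.62). Without CNO replicate 2 or 4 the ratio was called lower for 2 of them. Their summed level in IP was 131 to 186 FPKM with vehicle and 53.5 to 98.1 with CNO, and in input 32.1 to 42.0 and 19.4 to 24.8; the share of ependymal cells in the dissected tissue was not tested. Ccdc153, a marker of ependymal cells, had 13.8, 28.0, 16.9 and 16.2 FPKM in vehicle IP and 3.42, 4.9998, 3.71 and 4.31 in CNO IP, and 4.85, 5.66, 3.77 and 3.73 and 1.46, 1.07, 0.893 and 1.07 in input. The arms were apart in both (ratio change -0.21 ± 0.22 SE, adjusted p = 0.57). Foxj1, the transcription factor of motile cilia, fell from 57.5 ± 5.74 to 23.9 ± 5.11 FPKM in IP and from 12.5 ± 0.771 to 7.15 ± 0.982 in input (ratio change -0.46 ± 0.10 SE, adjusted p = 0.0082; adjusted p = 0.0735 without the mouse as a block).

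Rsph4a, a radial spoke protein of cilia, fell by 1.85 in IP and 1.18 in input, and its ratio was called lower without vehicle replicate 1 (-0.89, adjusted p = 0.019). Btbd17, a BTB domain protein, fell by 1.41 in IP and 1.03 in input, and Selenbp1, a selenium-binding protein, by 1.14 and 0.98; the ratio of Btbd17 was called lower without CNO replicate 1 (-0.54, adjusted p = 0.035). With a pseudocount of 1 the ratios of Ccdc153, Rsph4a and Btbd17 were called lower. Of the 70 shared falls 52 (74.3%) were enriched in control pull-downs.

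Markers of the remaining cell types gave few calls in the ratio. Shares of all genes called higher and lower were 12.0% and 9.39% in the ratio, 20.5% and 20.9% in IP and 2.66% and 1.01% in input. A count near these shares does not set a list of this size apart. Of 12 oligodendrocyte markers 1 was called higher and 1 lower in IP and 0 in the ratio. In input 1 of them was called higher and 2 lower by limma, and 1 and 4 by voom. At an unadjusted p under 0.05 in limma, 2 were higher and 6 lower in input. Among 9 markers of oligodendrocyte precursors 5 were lower and 1 higher in IP, and 0 were called in input. In the ratio 1 precursor marker, Gpr17, was lower (-0.89 ± 0.15 SE, adjusted p = 0.0023). Without vehicle replicate 1 the ratio was called higher for 3 oligodendrocyte and 1 precursor markers, and the precursor markers called lower became 4 without CNO replicate 1 and 2 without vehicle replicate 2. Of 12 markers of striatal interneurons 4 fell in IP, 0 in input and 2 in the ratio, and the last count was 0 with scaling within each fraction and ranged from 0, without vehicle replicate 4 or CNO replicate 3 or 4, to 4 without CNO replicate 2. Gpr17, a receptor of maturing precursors, was at 7.69, 7.97, 7.36 and 7.63 FPKM in vehicle IP and 4.27, 2.03, 3.26 and 3.43 in CNO IP. Among 8 mural markers Tagln, a smooth muscle actin-binding protein, rose from 3.29 ± 0.501 to 25.6 ± 9.87 FPKM in IP (ratio change 2.39 ± 0.20 SE, adjusted p = 2.9e-05), and Pdgfrb, the receptor of platelet-derived growth factor, fell from 13.5 ± 0.847 to 7.15 ± 0.835 (ratio change -0.88 ± 0.14 SE, adjusted p = 0.0014). Of 20 respiratory chain genes of mitochondria 1 rose and 6 fell in IP, and in the ratio 1 was called higher, Cycs, the gene of cytochrome c (0.38 ± 0.08 SE, adjusted p = 0.0076), and 0 lower by limma, with 3 past an unadjusted p of 0.05. The lower calls became 3 with RLE scaling, with no further scaling and by voom, 2 without vehicle replicate 3 and 1 without CNO replicate 1. Of 14 glucocorticoid response genes 3 were called higher and 2 lower in the ratio; Tsc22d3, the glucocorticoid-induced leucine zipper, changed by -0.77 ± 0.09 SE (adjusted p = 1.8e-04), and Fkbp5, a co-chaperone of the receptor, by 0.63 ± 0.09 SE (adjusted p = 0.001). The call of Tsc22d3 was lost without the mouse as a block (adjusted p = 0.13).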

How the data were processed

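Whole striatal lysate (input) and anti-HA pull-down (IP) RNA of 8 mice were sequenced with TruSeq Stranded kits on a HiSeq4000 after RiboZero Gold depletion, per the labels' protocols, although the molecule label reads polyA RNA. The deposited values are FPKM per gene, which the authors made with STAR, HTSeq and mm10, per the submitters' processing notes, with versions and settings not given in the sources used here. Whole reads came out for 24059 of 24060 entries (99.9% of values whole within 0.001 reads), which gave the depths.

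FPKM were scaled by TMM over the 16 libraries, log2-transformed with a pseudocount of 0.1, and kept where 4 or more libraries reached 0.5 FPKM, which left 15142 genes. Fits were made with limma 3.58.1 (trend) in R 4.3.3 on IP, on input and on IP minus input per mouse, with Benjamini-Hochberg adjustment over all genes tested and a threshold of 0.05. The ratio holds the mouse as its own block. Figures and tables were made with Python 3.11.15. On simulated data for the ratio fit (15142 genes), 82.0% of 2-fold and 45.0% of 1.5-fold changes and 0.0402% of unchanged genes were called. The changed genes were drawn only from those at a moderate or higher level in vehicle IP. The rates for changes thus do not extend to genes near 0 there, such as Thbd and Plaur. IP and input values of a mouse were drawn independently, so any covariation within a mouse was absent.

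The 35 gene lists, of which 562 of 590 entries were tested, and the choice of the 16 libraries were made with earlier results of these data known. Named were Chrm3, the 8 genes of each class with the largest ratio change (for shared classes, the largest smaller change) at a mean of at least 2 FPKM in a group and no overlap between the arms, and up to 4 called members of each list, or the 2 most abundant where none was called. Clone names, small RNAs and Y-linked genes were left out, and list members could be named beside their list. Cd68, Olfml3, Irf5, Cmklr1, P2ry6, Tgfbi, Rps12, C5ar1 and Grrp1 were chosen after their values were seen. Some genes that met these rules are not reported here. Alternatives covered scaling, pseudocount, filter, voom on recovered reads, replicate and mouse blocks, a 2-fold minimum, and each mouse left out. No sex term was fitted because Xist was near 0 in all 8 mice.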

Additional observations from a re-analysis of the deposited data

Results flagged for a closer look

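In 344 groups of 4 mice (172 named genes in 2 arms), 18 had a log2 IP over input that stood apart from the other 3 values by more than Dixon's 95% limit. Chance alone flags about 1 in 20 groups. In the vehicle arm, replicate 1 stood apart in 8 of them: Fam198a at 1.65 (others 2.01 to 2.03), Selenbp1 at 2.19 (2.47 to 2.52), Ppp1r15a at 0.96 (0.12 to 0.22), Hlf at -0.04 (0.35 to 0.40), Cmklr1 at -3.42 (-2.55 to -2.39), Ccl4 at -3.95 (-2.44 to -2.13), Il33 at 1.78 (1.36 to 1.40) and Vim at 2.71 (2.49 to 2.52). Replicate 3 stood apart for Rgs2 at -1.98 (-1.74 to -1.69) and Ptx3 at 3.09 (1.23 to 1.32), and replicate 4 for Plat at -0.50 (-0.27 to -0.23).

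In the CNO arm, replicate 4 stood apart for Tmem52 at 1.56 (others -0.54 to -0.26), Thbs1 at 1.03 (1.31 to 1.33), Ccl2 at 1.20 (1.69 to 1.74), Jun at 1.94 (2.37 to 2.42) and Ly6c1 at -4.83 (-3.86 to -3.71). Replicate 3 did so for Hspa1a at 2.64 (1.87 to 1.96) and replicate 2 for Adamts4 at 1.33 (0.72 to 0.82).

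Y-linked genes were low in vehicle replicate 1. Its Ddx3y level in IP was 8.66 FPKM, against 26.2 to 27.0 in the other vehicle mice. Uty was at 2.21 in IP (others 5.69 to 6.33) and at 2.98 in input (8.81 to 9.40), and Kdm5d was at 3.38 in input (8.12 to 8.71). Xist stayed near 0 in this mouse as in the others.

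The CNO effect itself differed between IP and input for 3232 genes, which the test of the change in log2 IP over input called.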

How the results depend on the processing

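Genes called in the ratio numbered 2696 to 3596 under the alternatives of scaling, pseudocount, filter, voom on recovered reads and blocks, and 2571 to 3191 of them were also among the 3232. With a change of at least 2-fold required, 520 genes were called. Input-led rises numbered 22 with a pseudocount of 1 and 18 by voom. Input-led falls numbered 1 with TMM within each fraction, with a pseudocount of 1 and with no filter. By voom there were 2 opposed genes and 154 shared rises. With the replicate number as a replicate block, input calls were 238 higher and 84 lower, with 5 input-led rises, 1 input-led fall, 48 shared rises and 39 shared falls. The deviations of same-numbered mice from the means of their arms correlated at -0.12 to 0.05 across IP, input and the ratio. The labels give these mice no pairing beyond the number. With 1 mouse left out, the ranges were 1407 to 1713 genes higher and 912 to 1608 lower in the ratio, 264 to 453 higher and 97 to 134 lower in input, 837 to 1468 IP-led falls, 5 to 14 input-led rises, 0 to 5 input-led falls, 0 to 1 opposed genes and 28 to 70 shared falls. Of 126 named genes called in the ratio, 96 kept the call under all 17 alternatives and 0 reversed. The remaining 30 lost it under at least 1, and 14 of those when a mouse was left out. Of 46 named genes not called, 20 were called under at least 1 alternative. Counts of some gene lists also moved when a mouse was left out, with 4 to 14 transport and channel genes and 3 to 12 astrocyte markers lower in the ratio. The cause of these shifts was not tested. Genes enriched by at least 2-fold numbered 2397 in the 4 vehicle mice with hM3Dq, against 1817 in the 20 control mice. A sex term was not run. Genes of low level are limited by depth: input libraries held fewer reads than IP libraries, and a level near 0 in either fraction makes the ratio depend on the pseudocount.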
